A study of Mus musculus with 223 samples.

Results

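Transcripts of 7 GABA-A receptor subunit genes were measured in single *Htr3a*-GFP+ cells of the developing mouse cortex. The 7 genes were taken as a named list, *Gabra2*, *Gabra3*, *Gabra4*, *Gabra5*, *Gabrb1*, *Gabrb2* and *Gabrg3*, and were found among the 43629 genes of the count table by their Ensembl identifiers. The list holds 4 alpha, 2 beta and 1 gamma subunit genes, and 12 other GABA-A receptor subunit genes stood outside it.

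The mice carried eGFP under *Htr3a* regulatory sequences on a C57BL/6 background, and animals of both sexes were used. GFP marks neurons that come mainly from the caudal ganglionic eminence, as the transgene drives it, and the sort therefore sets which cells could be seen. Sorted cells were captured on microfluidic chips at embryonic day 18 (E18, 82 cells) and at postnatal day 2 (P2, 66 cells) and day 5 (P5, 75 cells). Each age was 1 pool of 4 to 5 brains, so a group is 1 sample, cells are not replicates, and no p-value was computed. E18 cells carry no type. The study assigned the postnatal cells to types 1, 2 and 3 from the same transcriptomes, with 22, 31 and 13 cells at P2 and 34, 19 and 22 at P5, so a difference between types is given as a description. P5 cortices were dissociated in another solution, at a lower temperature and for longer than those of E18 and P2, and all P2 cells belong to 1 library set (labelled 353), so age and dissociation cannot be told apart in the contrast of P5 with E18, nor age and library set in that of P2 with E18. E18 and P5 cells were spread over library sets 383, 392 and 393. Between P2 and P5, age, library set and dissociation changed together.

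Mapped read pairs per cell ranged from 3707601 to 15840130, with a median of 9463033. The number of genes above 10 RPM (read pairs per 1000000 mapped, the level taken here as expression) had a median of 2496 at E18, from 1437 to 2482 in the P2 types and from 2102 to 2738 in the P5 types. The label was checked against 6 interneuron genes, the GABA synthesis enzymes *Gad1* and *Gad2* and the transcription factors *Dlx1*, *Dlx2*, *Dlx5* and *Dlx6*. At least 3 of them passed 10 RPM in 61 of 82 E18 cells, in 14 of 22, 14 of 31 and 7 of 13 P2 cells by type, and in 32 of 34, 17 of 19 and 17 of 22 P5 cells by type. Some cells stood apart. At E18, 12 of 82 cells passed 10 RPM for at least 3 of 6 excitatory neuron genes, and the summed pooled level of that list was 151.6 RPM at E18 against 1.29 to 32.5 RPM in the 6 postnatal groups. At P5, 4 of 19 type 2 cells had at least 3 genes of an astrocyte or oligodendrocyte list past that level, and the summed level of the astrocyte or radial glia list was 1736 RPM there against 16.996 to 210.9 RPM in the other groups. A list of 4 genes of interneurons from the medial ganglionic eminence had at least 3 genes past 10 RPM in 15 of 82 E18 cells and in 3 of 31 P2 type 2 cells. Its summed level was 596 RPM at E18, 8.95, 224.7 and 132.2 RPM in P2 types 1, 2 and 3, and from 2.63 to 17.6 RPM at P5. The main results that rest on cells with excitatory neuron or glial markers are given with and without those cells, and the part of the medial cells, which moved with age and type, was not tested.

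GABA-A receptors are chloride channels opened by GABA, built as pentamers that most often join alpha, beta and gamma subunits. GABA binds between an alpha and a beta subunit, the alpha subunit sets much of the receptor's kinetics and drug response, and the gamma subunit helps to anchor receptors at synapses. In immature cortical neurons GABA can depolarise the cell, and the receptor acts on migration and maturation before fast inhibition is established.

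The 7 genes lie on 4 chromosomes (build GRCm38). *Gabra2* (chr5:70957597-71095849, minus strand), *Gabra4* (chr5:71569749-71658308, minus strand) and *Gabrb1* (chr5:71658113-72149037, plus strand) lie on chromosome 5. *Gabrg3* (chr7:56716465-57387188) and *Gabra5* (chr7:57407672-57510059) lie on chromosome 7, both on the minus strand, with starts 122.9 kb apart. *Gabrb2* is on chromosome 11 (chr11:42419757-42629028, plus strand) and *Gabra3* on the X chromosome (chrX:72432681-72656848, minus strand). *Gabra4* and *Gabrb1* are transcribed away from each other from overlapping starts, and 46 bases of annotated exon belong to both. *Gabra5* shares exon bases with the antisense gene *Gm9962*. Whether counting used strand is not given in the sources used here, so reads in those shared bases cannot be assigned with certainty.

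Sequences before a transcript start of 3 members are shown, because *Gabra2* had its highest pooled level in type 3 cells and *Gabra3* in type 2 cells at both postnatal ages, and *Gabrb2* had the fold farthest from 0. Each is the 250 bases before a RefSeq transcript start (GRCm38.p6), written 5′ to 3′ on the gene's strand. They are chr5:71095850-71096099 for *Gabra2* (minus strand), chrX:72656920-72657169 for *Gabra3* (minus strand) and chr11:42420190-42420439 for *Gabrb2* (plus strand), which lies inside the annotated span of that gene. Capitals mark every match, on either strand, to 4 short motifs. The first is TGACAG, the core bound by MEIS factors. The second is TGACCT, the element of COUP-TF factors. The third is TATAAA, the TATA box. The last is GGGCGG, the GC box of SP and KLF factors. The study took MEIS2 as the marker of type 1 cells, and COUP-TF factors are known from cells of the caudal ganglionic eminence.
Gabra2: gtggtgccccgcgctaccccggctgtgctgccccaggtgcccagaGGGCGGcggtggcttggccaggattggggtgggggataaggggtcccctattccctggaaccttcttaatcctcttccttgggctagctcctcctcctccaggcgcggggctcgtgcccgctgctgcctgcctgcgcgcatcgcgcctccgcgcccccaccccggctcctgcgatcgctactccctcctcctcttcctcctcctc
Gabra3: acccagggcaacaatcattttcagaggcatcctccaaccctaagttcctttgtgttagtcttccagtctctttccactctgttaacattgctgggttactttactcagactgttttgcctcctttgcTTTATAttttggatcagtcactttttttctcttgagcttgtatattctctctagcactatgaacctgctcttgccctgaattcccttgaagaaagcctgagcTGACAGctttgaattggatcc
Gabrb2: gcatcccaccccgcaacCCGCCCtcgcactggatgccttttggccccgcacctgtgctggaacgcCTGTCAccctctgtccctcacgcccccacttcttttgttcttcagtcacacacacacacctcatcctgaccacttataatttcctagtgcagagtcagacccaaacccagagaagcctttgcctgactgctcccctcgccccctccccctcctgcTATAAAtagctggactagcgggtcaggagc
The *Gabra2* window was 70% G or C with 18 CpG dinucleotides and held 1 GC box. The *Gabra3* window was 42.4% G or C with 0 CpG and held 1 MEIS core and 1 TATA box. The *Gabrb2* window was 58.8% G or C with 8 CpG and held 1 MEIS core, 1 TATA box and 1 GC box. Over the 250 bases before the start in all 32851 RefSeq windows, the median was 52.4% G or C and 6 CpG. The MEIS core was found in 15.9% of windows, the COUP-TF element in 14.0%, the TATA box in 12.4% and the GC box in 32.7%. None of the 3 windows held the COUP-TF element. *Gabrb2* has 2 further RefSeq starts downstream, whose windows held none of the 4 motifs, and *Gabra3* has 1, whose overlapping window held the same MEIS core and TATA box. A match is a string of letters, not a binding site.

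Each member passed 10 RPM in a minority of cells, as did the median gene. Over the 14064 genes compared the median share of cells above 10 RPM was 4.55 to 11.0% by group, and the median over the members was 0 to 18.2%, lower than that of all genes in E18, P2 type 3 and P5 type 1, equal to it in P2 types 1 and 2 and higher in P5 types 2 and 3. The lowest cell of each group was at 0 RPM for all 7 members, and the median cell lay between 0 and 0.483 RPM, at 0 in 35 of the 49 combinations of member and group. The highest cell therefore carries much of a pooled level, which is the summed count of a group over its summed mapped read pairs. In 38 of the 48 combinations with a count, 1 cell held over 50% of the group's read pairs, and in 15 it held over 90%. The median over the 48 was 72.6%. Over the 14064 genes with a pooled level of at least 1 RPM in all cells, the highest cell held a median of 30.1% of a gene's read pairs at E18 and of 48.2 to 80% in the postnatal groups. For that reason the number of cells above 10 RPM is given for the members beside the pooled levels. Intervals are exact 95% intervals (Poisson for levels, binomial for shares). They cover counting error only, since amplified read pairs are not independent molecules. Each member's pooled levels had separate Poisson intervals at every step in the order of the 7 groups, whereas the binomial intervals of its shares overlapped at every step.

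**Figure D1:**
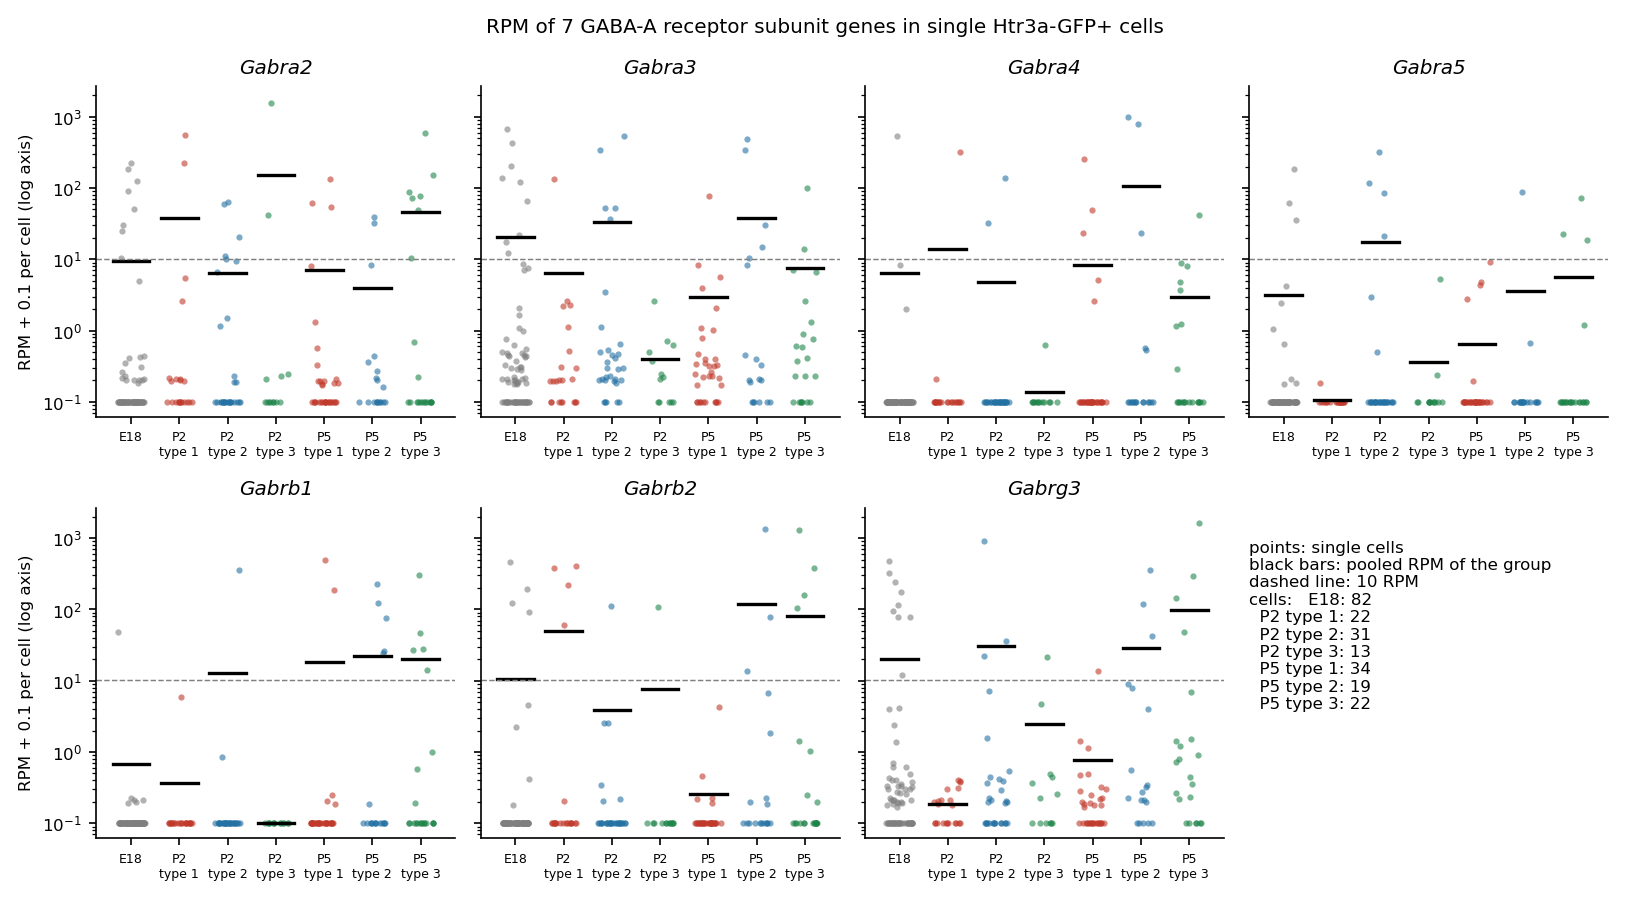
RPM of each of the 7 members in each cell, with 0.1 RPM added and a log axis, by group. Points are single cells, black bars are pooled levels and the dashed line is 10 RPM. Most cells lie at or near 0 RPM, and a few cells of a group, up to 1661 RPM for *Gabrg3*, set its pooled level.

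Among the alpha members, *Gabra2*, whose subunit is known from synapses and the axon initial segment of forebrain neurons, passed 10 RPM most often, in 13.0% of all cells. Its pooled level was 9.45 RPM at E18, with 8 of 82 cells above 10 RPM. At P2 it was 38.3 RPM in type 1 (2 of 22 cells), 6.24 RPM in type 2 (5 of 31) and 154.01 RPM in type 3 cells (2 of 13). At P5 the levels were 6.86, 3.90 and 45.6 RPM. Type 3 cells thus had the highest pooled level at each postnatal age. The 2 ages differ in how this came about. At P2 a single type 3 cell at 1556 RPM held 97.6% of the read pairs, and without it the level was 4.16 RPM, below the 4.35 RPM of type 2 without its own highest cell. At P5, 7 of 22 type 3 cells were above 10 RPM (31.8%, interval 13.9 to 54.9%), with the highest at 594 and the next at 153.6 RPM, against 3 of 34 type 1 and 2 of 19 type 2 cells. The log2 fold of pooled RPM plus 1, the scale of all folds below, was 2.77 for P5 type 3 cells against the other P5 types, 1.96 without the highest cell of each side, and 2.74 among the cells of library set 393 alone. All 7 P5 type 3 cells above 10 RPM were of library set 393. The type 3 cells of sets 383 (2 cells) and 392 (3 cells) were at 0 RPM. In P2 type 3 cells the log2 fold was 2.90, and -0.83 without the highest cells.

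*Gabra3* encodes a subunit prominent in the embryonic and newborn cortex. At E18 it passed 10 RPM in 9 of 82 cells, where the pooled level was 20.8 RPM and the 3 highest cells stood at 675, 431 and 201.1 RPM. At P2 the level was 6.29 RPM in type 1, 32.96 RPM in type 2 and 0.2999 RPM in type 3 cells, and at P5 it was 2.87, 38.3 and 7.55 RPM. Type 2 cells had the highest pooled level at each postnatal age. Above 10 RPM were 5 of 31 type 2 cells at P2 (16.1%, interval 5.45 to 33.7%) and 5 of 19 at P5 (26.3%, interval 9.15 to 51.2%). Type 1 had 1 of 22 (P2) and 1 of 34 (P5), and type 3 had 0 of 13 (P2, which allows a share of up to 24.7%) and 2 of 22 (P5). The log2 fold of type 2 cells was 2.59 at P2 and 2.85 at P5, and without the highest cells it was 3.63 and 2.46. At P5 the highest type 2 cell, at 486 RPM, was 1 of the 4 with glial markers. Without those 4 cells the level of P5 type 2 cells was 21.7 RPM, with 4 of 15 cells above 10 RPM, and the fold was 2.06. Within library set 393 it was 1.94.

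*Gabra4*, whose subunit is best known from receptors outside synapses, was rarer. It was above 10 RPM in 4.93% of all cells. Its pooled level was 6.38 RPM at E18, 14.0, 4.66 and 0.0360 RPM in types 1, 2 and 3 at P2, from 1 of 22, 2 of 31 and 0 of 13 cells above 10 RPM, and 8.33, 106.01 and 2.83 RPM at P5, from 3 of 34, 3 of 19 and 1 of 22. At E18 98.1% of the read pairs came from 1 of 82 cells at 530 RPM, a cell with excitatory neuron markers, and the 70 E18 cells without such markers had 0 read pairs of *Gabra4*. The level of 106.01 RPM in P5 type 2 cells came from 3 of 19 cells (15.8%, interval 3.38 to 39.6%), of which the highest was at 983 and the next at 795 RPM. Of those 3 cells 2 had glial markers, and without them the level was 77.7 RPM, from 1 of 15 cells. The fold of P5 type 2 cells was 3.84, 3.68 without the highest cells, 3.39 without cells of other markers and 5.32 within library set 393. P5 type 3 cells, with 1 of 22 cells above 10 RPM, stood at a log2 fold of -3.50.

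*Gabra5*, whose subunit carries much of the tonic inhibition of the hippocampus, had the lowest pooled level of the members over all cells, 4.54 RPM. It was 3.01 RPM at E18 with 3 of 82 cells above 10 RPM, and 1.33 RPM with 2 of 70 without the cells of excitatory neuron markers, 1 of which was the highest. It was 0.00452 RPM (1 read pair), 17.6 RPM and 0.264 RPM in types 1, 2 and 3 at P2, and 0.543, 3.45 and 5.54 RPM at P5. At P2 it was above 10 RPM in type 2 cells alone, in 4 of 31 cells (12.9%, interval 3.63 to 29.8%), with the highest cells at 319, 118.6 and 86.1 RPM. None of the 22 type 1 cells passed that level, which allows a share of up to 15.4%. At P5, 3 of 22 type 3 cells were above it (13.6%), at 72.4, 22.3 and 18.6 RPM. Type 2 had 1 such cell of 19 and type 1 had 0 of 34, a count that allows up to 10.3%. The log2 fold of type 2 cells at P2 was 4.11, and that of type 3 cells at P5 was 1.36.

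The beta members were low in different groups. *Gabrb1* was close to 0 at E18. Its pooled level there was 0.578 RPM, from 1 of 82 cells at 48.4 RPM, the same cell with excitatory neuron markers that held *Gabra4*. In the 70 E18 cells without such markers the level was 0.00448 RPM. At P2 the level was 0.262 RPM in type 1 cells and 12.8 RPM in type 2 cells, where a single cell at 363 RPM held 99.8% of the read pairs, and the 13 type 3 cells had 0 read pairs. With the limit of 3 read pairs that a count of 0 allows, type 3 cells were at least 208.7-fold lower than the other P2 cells, a bound that rests on that 1 cell. At P5 the 3 types were close, at 18.1, 22.1 and 19.99 RPM. The cells behind these levels were fewer in type 1. They were 2 of 34 in type 1 (5.88%, interval 0.720 to 19.7%), 5 of 19 in type 2 (26.3%, interval 9.15 to 51.2%) and 5 of 22 in type 3 cells (22.7%, interval 7.82 to 45.4%). The intervals of types 2 and 3 at P5 did not overlap that of E18 (1.22%, interval 0.0309 to 6.61%), and these were the 2 pairs of groups, of 21 for each of the 7 members, with separate intervals. Such intervals take cells as independent and cover no difference between pools of brains, so the separation is a description and not a test. Of all 14064 genes 1.39% had separate intervals between E18 and P5 type 2 cells, with P5 higher in 1.11%. Between E18 and P5 type 3 cells 7.32% had them, with P5 higher in 1.70%. Within library set 393 *Gabrb1* passed 10 RPM in 1 of 25 E18 cells, 4 of 14 type 2 cells and 4 of 17 type 3 cells, and these intervals overlapped. Without cells of other markers the interval of E18 (0 of 70 cells) overlapped that of P5 type 2 cells and not that of type 3 cells. There 6.04% of all genes had separate intervals, with P5 higher in 1.72%. Without the cells of glial markers the level of P5 type 2 cells was 11.9 RPM, with 3 of 15 cells above 10 RPM.

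*Gabrb2* encodes the beta subunit of the most abundant receptors of the adult brain. It had the highest pooled level of the members over all cells, 27.2 RPM. It was 10.6 RPM at E18, from 4 of 82 cells. At P2 it was 49.2 RPM in type 1, 3.74 RPM in type 2 (1 of 31 cells) and 7.49 RPM in type 3 cells (1 of 13), and at P5 it was 0.159, 120.5 and 80.4 RPM. The type 1 level thus stood highest of the types at P2 and lowest at P5. At P2, 4 of 22 type 1 cells were above 10 RPM (18.2%, interval 5.19 to 40.3%), at levels from 61.3 to 407 RPM. At P5, 0 of 34 type 1 cells passed it (up to 10.3%), the highest cell being at 4.20 RPM, against 3 of 19 type 2 cells and 4 of 22 type 3 cells. The log2 fold of type 1 cells was 3.18 at P2 and -6.46 at P5, and without the highest cells it was 3.54 and -5.46. Within P5 library set 393 the type 1 fold was -4.36 and within set 392 it was -6.80. The level of 120.5 RPM in P5 type 2 cells came to 95.2% from 1 cell at 1337 RPM. Without the highest cells its log2 fold was -0.91 in place of 2.12, and within library set 393 it was -3.14. The level of P5 type 3 cells held several cells, with the highest at 1306, 383 and 160.5 RPM, and its fold was 0.92, 3.65 without the highest cells and 4.48 within library set 393.

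The gamma member *Gabrg3* encodes a subunit that can stand in the gamma position but is rarer than its relatives in the adult brain. At E18 it passed 10 RPM in 9 of 82 cells, with a pooled level of 20.01 RPM and the 3 highest cells at 475, 329 and 239.8 RPM. At P2 the level was 0.0859 RPM in type 1, 30.9 RPM in type 2 (3 of 31 cells) and 2.34 RPM in type 3 cells (1 of 13). At P5 it was 0.676, 28.5 and 99.9 RPM. Type 1 cells were lowest at each age. No type 1 cell exceeded 0.308 RPM at P2, and 1 of 34 was above 10 RPM at P5, at 13.4 RPM. At P5, 3 of 19 type 2 cells and 4 of 22 type 3 cells (18.2%, interval 5.19 to 40.3%) were above 10 RPM, the latter led by a cell at 1661 RPM and another at 296 RPM. The log2 fold was -5.26 for P5 type 1 cells and 3.15 for P5 type 3 cells. Without the highest cells these folds were -4.57 and 2.55, and within library set 393 they were -6.06 and 2.60. At P2 the fold of type 2 cells was 4.23, or 1.53 without the highest cells, as 1 cell at 900.3 RPM held 91.97% of the read pairs.

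**Figure D2:**
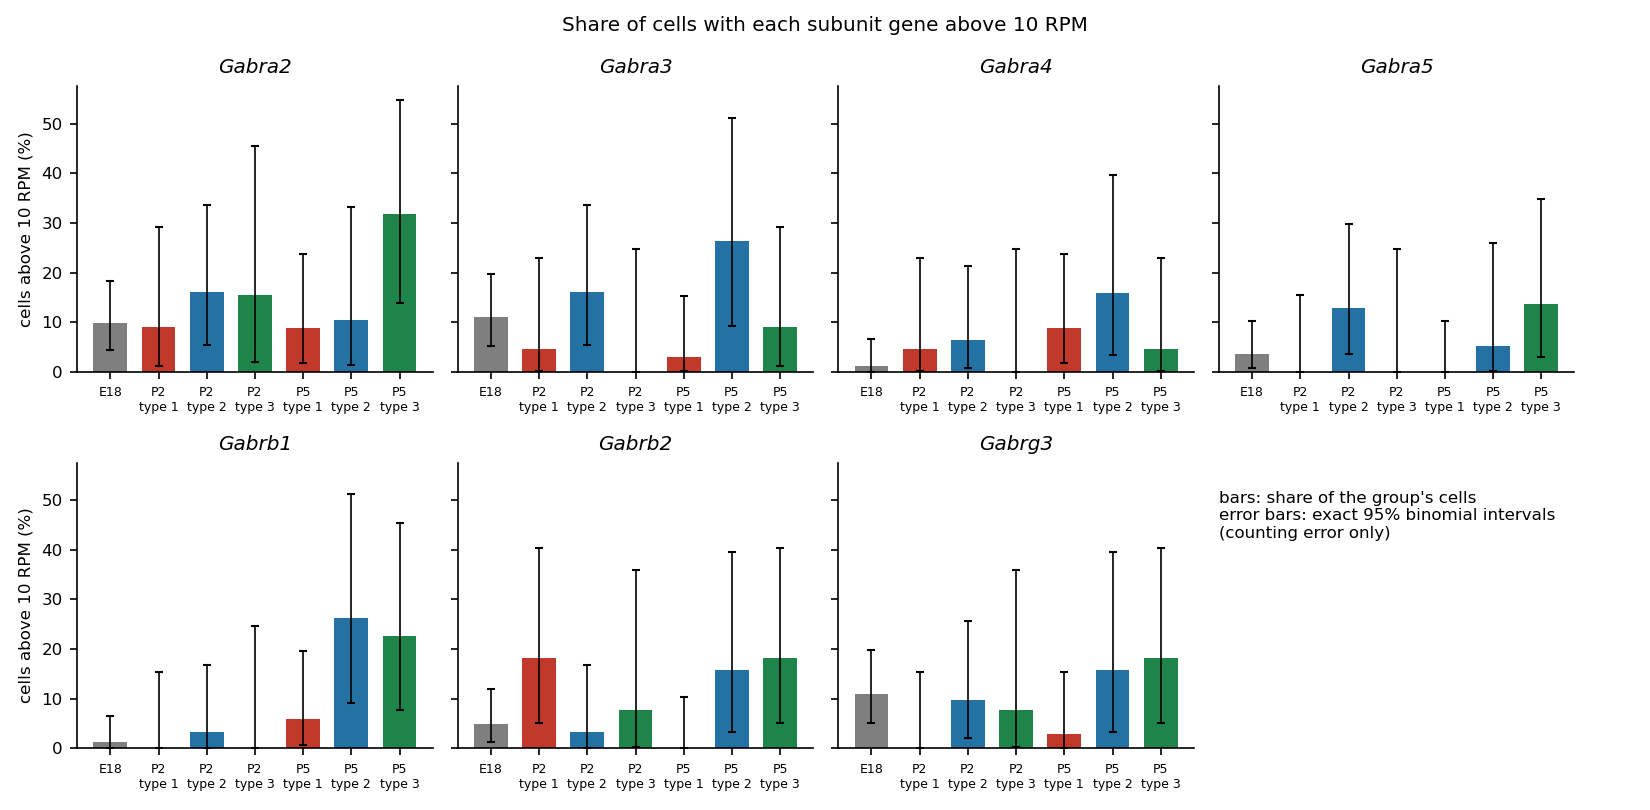
Share of cells of each group with a member above 10 RPM, in percent, with exact 95% binomial intervals as error bars. The highest share is 31.8%, for *Gabra2* in P5 type 3 cells, and most intervals overlap.

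The types of P5 were compared to ask how the subunit genes differ between the classes of *Htr3a*-GFP+ interneurons. In P5 type 1 cells 6 of the 7 members were at least 2-fold lower than in the other P5 types and 0 were at least 2-fold higher. Of all 14064 genes compared 25.9% were at least 2-fold lower and 21.7% higher in that comparison. The median log2 fold was -2.61 over the members and -0.02 over all genes. *Gabrb1*, at -0.21, was the member within 2-fold. In P5 type 2 cells 3 members were higher (*Gabra3*, *Gabra4* and *Gabrb2*, against 23.2% of all genes) and 1 was lower (*Gabra2*, against 22.6%), with a median of 0.47 over the members and 0.00 over all genes. In P5 type 3 cells 3 members were higher (*Gabra2*, *Gabra5* and *Gabrg3*, against 15% of all genes) and 1 was lower (*Gabra4*, against 42.2%), with medians of 0.92 and -0.58. The library sets of the P5 types differ, as set 393 gave 12, 14 and 17 of the cells in types 1, 2 and 3. Within that set 6 members were lower in type 1 cells (against 33.7% of all genes) and 0 were higher (against 19.2%). In its type 2 cells 2 were higher (against 27.2%) and 2 lower (against 21.4%), and in its type 3 cells 4 were higher (against 15.8%) and 1 lower (against 39.3%). Within set 392, with 11 type 1 cells against 6 other cells, 2 members were lower (against 24.7%) and 2 higher (against 26.3%) in type 1 cells.

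At P2 the pattern over types was another one. In P2 type 1 cells 2 members were at least 2-fold higher (*Gabra4* and *Gabrb2*, against 19% of all genes) and 4 were lower (*Gabra3*, *Gabra5*, *Gabrb1* and *Gabrg3*, against 33.1%). In P2 type 2 cells 4 members were higher (*Gabra3*, *Gabra5*, *Gabrb1* and *Gabrg3*, against 28.8%) and 2 were lower (*Gabra2* and *Gabrb2*, against 21%). The median log2 fold of the members was 2.59 in type 2 cells, and 0.08 over all genes. In P2 type 3 cells 1 member was higher (*Gabra2*, against 13.9%) and 6 were lower, against 50.3% of all genes. The median there was -3.09 over the members, -3.04 with *Gabrb1* at its bound, and -1.02 over all genes. The 13 type 3 cells were the smallest and shallowest group, with a median of 6483871 mapped read pairs. Several of these P2 calls rest on 1 cell. *Gabra4* in type 1 was above 10 RPM in 1 of 22 cells, and its fold was -0.88 without the highest cells. The 3 calls of *Gabrb1* rest on 1 type 2 cell, and without the highest cells its folds were -0.03, 0.03 and -0.17 in types 1, 2 and 3. The comparisons within an age share their cells, since each type is part of the others' reference, so a member high in 1 type is likely to be low in another.

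The ages were compared to ask how the subunit genes differ between migrating cells at E18 and cells settling in the cortex. In all P2 cells 3 of the 7 members were at least 2-fold higher than at E18 (*Gabra2*, *Gabra5* and *Gabrb1*, against 16.1% of all genes) and 0 were lower (against 24.8%). In all P5 cells 3 were higher (*Gabra4*, *Gabrb1* and *Gabrb2*, against 15.4%) and 0 were lower (against 22.6%). *Gabrb1* was the member higher at both ages, with pooled levels of 0.578 RPM at E18, 6.48 RPM at P2 and 19.6 RPM at P5 and log2 folds of 2.25 and 3.71. Its P2 level rests on 1 of 66 cells, and the fold was 0.14 without the highest cells. Under that setting *Gabra4* (1.59 at P2 and 3.99 at P5) and *Gabrb2* (1.35 and 1.96) were the members past 2-fold at both ages, so which member this was depends on single cells. At P5 *Gabrb1* was above 10 RPM in 12 of 75 cells (16.0%, interval 8.55 to 26.3%) and its fold was 3.90 without the highest cells. *Gabrb2* had 10.6 RPM at E18, 20.7 RPM at P2 and 51.5 RPM at P5. Its share went from 4.88% at E18 to 9.09% and 9.33%. *Gabra3* was at 20.8, 18.8 and 13.3 RPM and above 10 RPM in 11.0, 9.09 and 10.7% of cells, and *Gabrg3* at 20.01, 15.8 and 32.4 RPM, each within 2-fold of E18 at P2 and P5. The P2 level of *Gabrg3* came to 89.9% from 1 cell, and without the highest cells its fold was -2.47. Within library set 393, which holds 25 E18 and 43 P5 cells, the P5 fold of *Gabrb1* was 3.29 and that of *Gabra4* 1.28, while that of *Gabrb2* was -0.66. Within set 383, with 48 E18 and 15 P5 cells, the same 3 folds were 0.06, 0.00 and 5.06, so the higher *Gabrb1* and *Gabra4* of P5 were not seen there. Within set 392 they were 4.34, 4.08 and 1.56. The 1 E18 cell above 10 RPM for *Gabra4* and for *Gabrb1* had excitatory neuron markers. Without the cells of other markers the P2 folds of these 2 genes were 3.07 and 2.90 and their P5 folds 4.53 and 4.18. The P5 fold of *Gabra3* became -1.47 from -0.61.

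**Figure D3:**
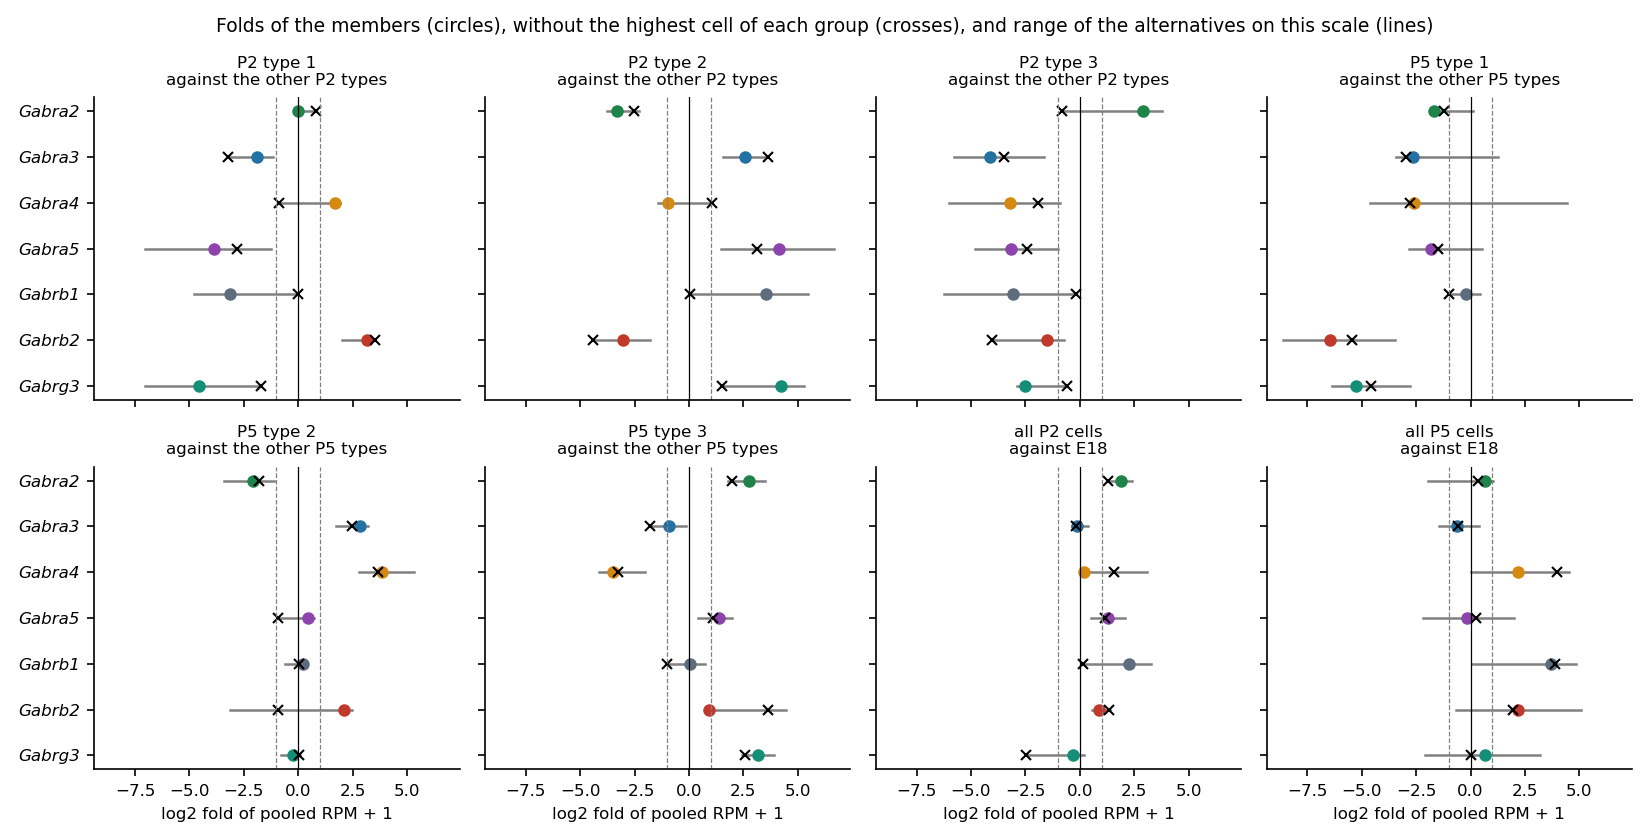
Log2 fold of pooled RPM plus 1 for each member in the 8 comparisons (circles), the same without the highest cell of each side (crosses), and the range over the alternative settings on this scale (grey lines, which leave out the difference of mean log2 values). Dashed lines mark 2-fold. *Gabrb2* in P5 type 1 cells, at -6.46, lies farthest from 0, and several circles and crosses fall on opposite sides of 0.

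The members were then counted per cell. A minority of E18 cells, 27 of 82, had a member past 10 RPM (32.9%, interval 22.9 to 44.2%). The P2 counts were 6 of 22, 16 of 31 and 4 of 13 by type. At P5 the counts were 9 of 34 type 1 cells (26.5%, interval 12.9 to 44.4%), 13 of 19 type 2 cells (68.4%, interval 43.4 to 87.4%) and 16 of 22 type 3 cells (72.7%, interval 49.8 to 89.3%). Thinning each cell to the 3707601 mapped read pairs of the shallowest left these counts as they were. At E18 the counts were 12 of 48 cells in library set 383, 4 of 9 in set 392 and 11 of 25 in set 393. Within set 393 the counts at P5 were 3 of 12, 9 of 14 and 13 of 17. Type 1 cells had 1 of 11 in set 383 (9.09%) and 5 of 11 in set 392 (45.5%), and types 2 and 3 had 2 to 3 cells each there. Without the cells of glial markers type 2 had 10 of 15. The median number of genes above 10 RPM was 2258, 2738 and 2102 in P5 types 1, 2 and 3. In every group but P2 type 2 (2386 and 2522) cells with a member had more genes detected than cells without one, with medians of 2822 and 2350 at E18, 2903 and 2677 in P5 type 2 and 2455 and 2173 over all cells, and the part of detection in these counts was not tested. Per 1000 genes detected, members numbered 0.127 in P5 type 1, 0.401 in type 2 and 0.569 in type 3 cells, against 0.164 at E18. The mean number of members per cell was 0.294, 1.16 and 1.18 in the P5 types and 0.427 at E18, and with thinned cells 0.294, 1.21 and 1.14, and 0.427.

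**Figure D4:**
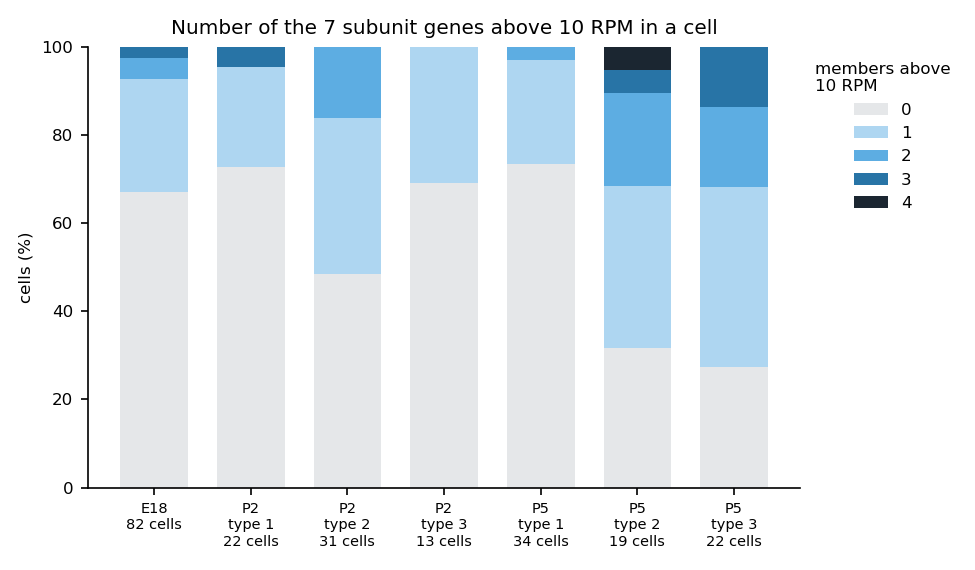
Percent of the cells of each group with 0 to 4 of the 7 members above 10 RPM. P5 types 2 and 3 have cells with at least 1 member in 68.4% and 72.7% of cases, and the other groups in 26.5% to 51.6%.

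A receptor needs an alpha and a beta subunit, so cells with a member of each kind were counted. They were 3 of 82 at E18 (3.66%, interval 0.761 to 10.3%), 1 of 22, 1 of 31 and 0 of 13 in the P2 types, and 0 of 34, 5 of 19 (26.3%, interval 9.15 to 51.2%) and 3 of 22 (13.6%, interval 2.91 to 34.9%) in the P5 types. The 0 of 34 allows a share of up to 10.3%. Without cells of other markers E18 had 2 of 70 and P5 type 2 had 3 of 15. The cell with the most members was a P5 type 2 IN with *Gabrg3* at 117.5 RPM, *Gabrb1* at 76.2 RPM, *Gabra2* at 39.7 RPM and *Gabra3* at 14.7 RPM. Another P5 type 2 IN held *Gabrb1* at 123.1 RPM, *Gabra5* at 88.5 RPM and *Gabrg3* at 41.9 RPM. A P5 type 3 IN held *Gabrg3* at 145.7 RPM, *Gabra2* at 48.99 RPM and *Gabrb1* at 26.6 RPM. These 3 cells had an alpha, a beta and the gamma member, as did 1 E18 cell with *Gabra3* at 431 RPM, *Gabrb2* at 93.2 RPM and *Gabrg3* at 77.4 RPM. Other subunit genes can fill each place, so a cell without a pair of members is not a cell without a receptor.

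Some pairs of members did not meet. The 14 cells with *Gabrb1* and the 17 cells with *Gabrb2* above 10 RPM shared 0 cells, and at a level of 1 RPM the 15 and 25 cells shared 4. The 23 cells with *Gabra3* shared 0 with the 11 cells of *Gabra4* and 0 with the 11 cells of *Gabra5*, and at 1 RPM these pairs shared 2 and 3 cells. *Gabrb1* and *Gabrg3* met most often, in 5 cells, 35.7% of those with *Gabrb1* and 23.8% of those with *Gabrg3*. Of the gene neighbours, *Gabra4* and *Gabrb1* met in 3 cells (27.3% and 21.4%), all 3 with markers of another cell type, and *Gabra5* and *Gabrg3* in 2 cells (18.2% and 9.52%). At these numbers a pair that meets in few cells is not shown to be kept apart.

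The balance between members of a kind was taken per length, as pooled RPM per kb of annotated exon. Among the 4 alpha members at E18 *Gabra3* made up 61.6%, *Gabra2* 14.4%, *Gabra4* 12.2% and *Gabra5* 11.8%. Without the highest cell of each member *Gabra4* made up 0.452% and *Gabra3* 70.2% there. The highest *Gabra4* cell had excitatory neuron markers. In P2 type 2 cells *Gabra3* made up 52.8% and *Gabra5* 37.2%, and in P2 type 3 cells *Gabra2* made up 99.2%. In P5 type 1 cells *Gabra4* led with 43.045%, in type 2 cells *Gabra4* with 60.4% before *Gabra3* with 33.8%, and in type 3 cells *Gabra2* with 58.4%. Without the highest cell of each member the leading alpha member was the same in 6 of the 7 groups, and in P5 type 1 cells it became *Gabra2* with 39.9%. The balance turned on how cells were weighted. As a mean of the percentages of single cells with any alpha read pair, *Gabra3* led in all 7 groups, with 61.6% at E18, 70.3, 51.8 and 50.8% in P2 types 1, 2 and 3, and 56.3, 50.6 and 38.1% in the P5 types, where *Gabra4* had 26.1% in type 2 and *Gabra2* 26.2% in type 3. Such a mean weighs a cell with a trace as much as any other, so these leads rest in part on traces. *Gabra3* had a read pair in 66.4% of all cells and was above 10 RPM in 10.3%. In P2 type 3 cells, where it had 50.8%, its pooled level was 0.2999 RPM and 0 of 13 cells were above 10 RPM. For pooled levels per kb of coding length in place of exon length, the leader was the same in 6 groups. It became *Gabra2* in P5 type 1 cells. Counted by cells, *Gabra2* was the leading alpha member in 6 of the 9 P5 type 3 cells with an alpha member above 10 RPM, and *Gabra3* in 4 of 10 type 2 cells and in 9 of 19 E18 cells. Between the beta members *Gabrb2* made up 97.6% at E18, 99.8% in P2 type 1 cells and 1.88% in P5 type 1 cells. It made up 92.2% and 89.7% in P5 types 2 and 3, although *Gabrb1* was the leading beta member in 5 of 8 and 5 of 9 of their cells. Without the highest cells *Gabrb2* made up 54.9% and 93.9% there. As a mean of the percentages of single cells with any beta read pair, *Gabrb2* had 57.1% at E18, 99.2% in P2 type 1, 75% in P2 type 2, and 38.1, 54.2 and 44.3% in P5 types 1, 2 and 3 cells, so the lead passed to *Gabrb2* in P2 type 2 and to *Gabrb1* in P5 type 3 cells. These means too rest on traces. Of the 6 E18 cells with a *Gabrb1* read pair 1 was above 1 RPM, and so was 1 of the 5 P5 type 1 cells with a *Gabrb2* read pair. In P2 type 2 cells *Gabrb1* made up 61.1% when cells were pooled, or 5.27% without the highest cells. The percentages cover the listed members only.

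**Figure D5:**
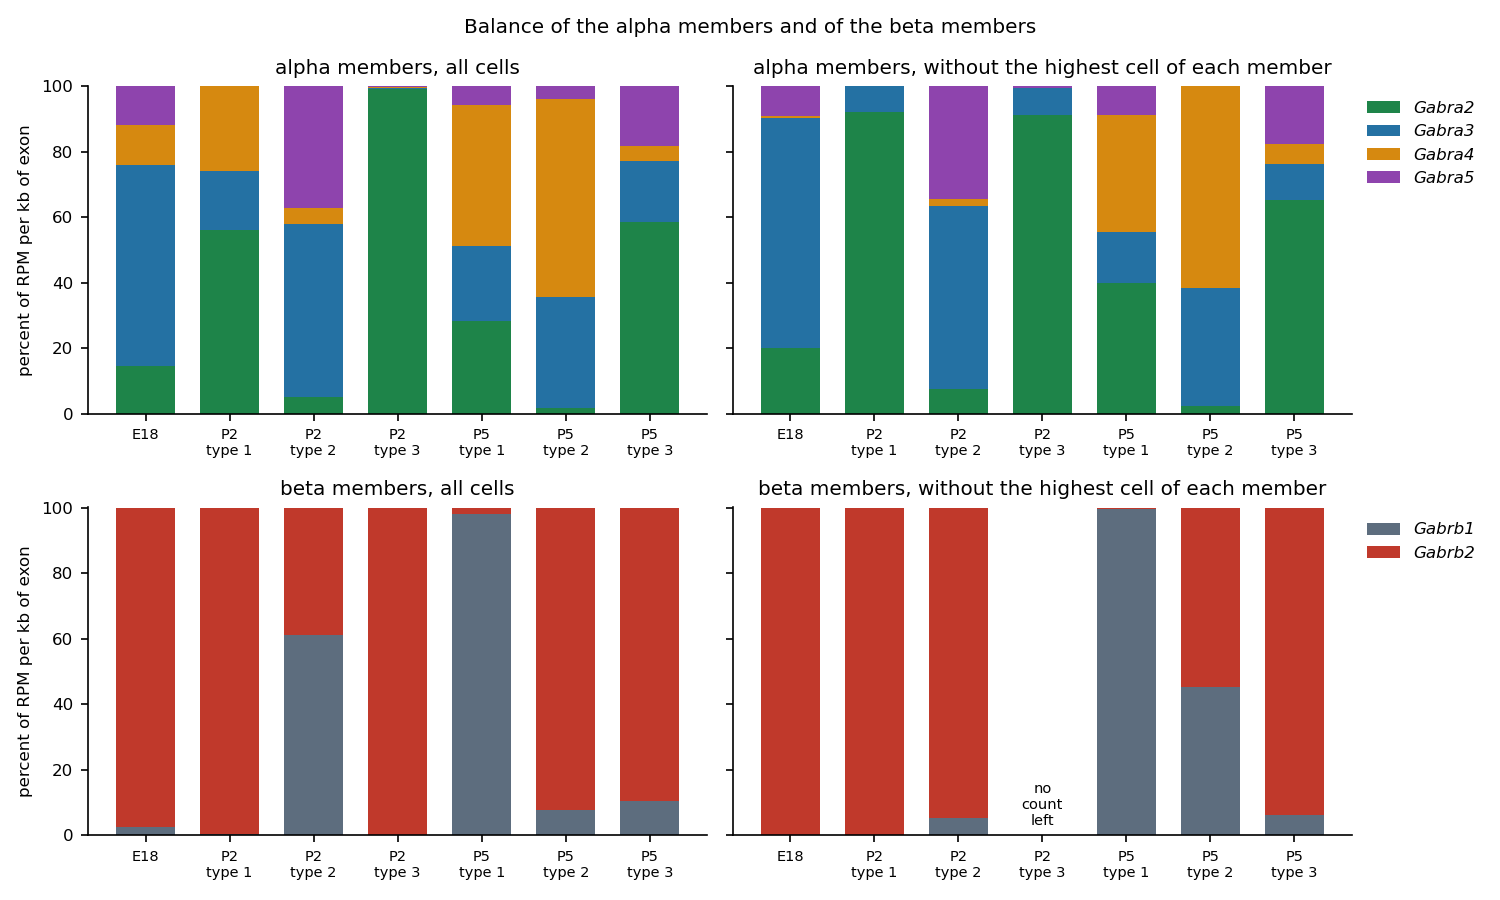
Percent of each alpha member (upper panels) and each beta member (lower panels) in the summed pooled RPM per kb of its kind, by group, with all cells (left) and without the highest cell of each member (right). *Gabra2* leads the alpha members of type 3 cells at both ages in each panel, and the beta balance of P5 type 1 cells stands apart from that of P2 type 1 cells.

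Other genes of the receptor's pathway were read as 4 lists. Of 12 further subunit genes 5 passed the 1 RPM level over all cells, and 3 of these were higher and 1 lower in P5 type 2 cells, 1 higher and 3 lower in P5 type 1 cells, and 1 higher and 2 lower in P5 type 3 cells. The shares of all genes to set beside the counts of this and the following lists were 21.7% higher and 25.9% lower in P5 type 1, 23.2% and 22.6% in type 2, and 15% and 42.2% in type 3 cells. *Gabrg1*, a gamma subunit gene also used by glia, was above 10 RPM in 3 of 19 P5 type 2 cells with a pooled level of 41.6 RPM, and in 2 of 15 with 11.0 RPM without the cells of glial markers. *Gabrr1*, a rho subunit gene, was above 10 RPM in 1 of 34 P5 type 1 cells. Of 10 scaffold and synapse genes 9 passed. In P5 type 1 cells 3 were higher and 4 lower, among them *Gphn* (gephyrin, the scaffold of inhibitory synapses) at 16.8 RPM against 109.8 RPM in type 2 and 61.96 RPM in type 3 cells, a log2 fold of -2.30, with 5 of 34, 10 of 19 and 10 of 22 cells above 10 RPM. In the other direction *Shisa7*, an auxiliary protein of the receptor, was at 31.1 RPM in P5 type 1 cells against 2.12 and 2.91 RPM, although it was above 10 RPM in 3 of 34 cells of type 1 and in 4 of 22 of type 3. In P5 type 3 cells 4 of these 9 were higher and 3 lower, and in type 2 cells 2 and 3. At P2 the counts of higher and lower genes were 3 and 2, 2 and 3, and 1 and 4 in types 1, 2 and 3, against 19% and 33.1%, 28.8% and 21%, and 13.9% and 50.3% of all genes.

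Of 13 trafficking genes all passed, and 5 were higher and 2 lower in P5 type 1 cells, 1 and 5 in type 2 cells, and 3 and 5 in type 3 cells, where 42.2% of all genes were lower. *Gabarapl2*, of the family of the receptor-associated protein GABARAP, was at 414, 85.6 and 28.4 RPM in the 3 P5 types, with 29 of 34, 11 of 19 and 4 of 22 cells above 10 RPM. *Trak1*, a kinesin adaptor, was at 36.4, 44.6 and 219.3 RPM with 6 such cells in each type, and *Gabarap* itself at 118.8, 77.6 and 27.3 RPM. Against E18 all P5 cells had 1 trafficking gene higher and 1 lower, and 2 scaffold genes higher and 0 lower, against 15.4% and 22.6% of all genes. The GABA-B receptor genes were more widespread than the members. *Gabbr1* was above 10 RPM in 38.6% of all cells and *Gabbr2* in 21.1%, against 4.93 to 13.0% for the members. The log2 fold of *Gabbr1* was -1.47 in P5 type 1 cells and 1.38 in P5 type 2 cells. All 14064 genes had medians of -0.02, 0.00 and -0.58 in the 3 P5 comparisons, and the lists held medians of -0.97 (scaffold) and -0.12 (trafficking) in type 1 cells.

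The genes most like each member over the 7 groups were sought, by Pearson's r, among up to 5610 genes that passed 10 RPM in 25% or more of some group's cells. The r was taken on log2(pooled RPM + 1). The values are descriptions over 7 points that share library sets and depth. They were *5530400K19Rik* (r = 0.97) and *Mtif2* (0.93) for *Gabra2*, *Gprin1* (0.98) and *Pld3* (0.97) for *Gabra3*, and *Asrgl1* (0.98) and *Zdhhc20* (0.97) for *Gabra4*. For *Gabra5* they were *Cntnap2*, a neurexin-related adhesion gene (0.97), and *Slc4a10*, a bicarbonate transporter gene (0.97). For *Gabrb1* they were *Ttll4* (0.99) and *Hapln1*, a matrix link protein gene (0.96), for *Gabrb2* *Hpf1* (0.94) and *Cadps*, a vesicle priming gene (0.94), and for *Gabrg3* *Kctd6* (0.98) and the atypical cadherin gene *Fat1* (0.98). No gene was named for more than 1 member. From 8 to 76 of the candidate genes had an r over 0.9 with a member.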

How the data were processed

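Whole-cortex *Htr3a*-GFP+ cells had been sorted, captured singly on a Fluidigm C1, amplified with SMARTer chemistry without molecular identifiers, made into Nextera XT libraries and sequenced as paired reads. The authors aligned them with TopHat to GRCm38 and counted read pairs per Ensembl gene with HTSeq 0.6.1, and the deposited values are raw counts per gene and cell. Whether strand was used is not given in the sources used here. Mapped read pairs per cell were taken from the scaling coefficient in each cell's labels and gave RPM. Of 43629 gene identifiers 42462 were named by the reference, and 0 columns of cells were left out.

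Counts and mapped read pairs were summed per group. Folds were log2 ratios of pooled RPM + 1 and were called past 2-fold, over 14064 genes with at least 1 RPM over all cells. With 1 pool of brains per age no test was run. Poisson and binomial intervals were exact at 95%. The named genes were the 7 members, genes of the pathway lists and the 2 genes most like each member. The members and lists were chosen with earlier results of these data known. Alternatives were edgeR 4.0.16 and DESeq2 1.42.0 scaling factors, scaling by total counts on genes, other pseudocounts, filters and thresholds, means over cells, and leaving out cells or library sets. The fold code was tested on simulated data. Python 3.11.15, pandas 2.3.3, scipy 1.17.1 and R 4.3.3 were used. Some other genes of the lists are not reported here.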

Additional observations from a re-analysis of the deposited data

Results flagged for a closer look

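In 5 of 21 instances (7 members in 3 types) a member's log2 fold, a postnatal type set against the remaining cells of that age, had opposite signs at P2 and P5 and was past 2-fold at each age. Of all 14064 genes 11.5% were so in type 1, 12% in type 2 and 12% in type 3 cells. *Gabrb2* in type 1 cells went from 3.18 at P2 to -6.46 at P5, a difference (P5 minus P2) of -9.64. *Gabrg3* in type 3 cells went from -2.50 to 3.15, a difference of 5.65. *Gabrb2* in type 2 cells went from -3.03 to 2.12, a difference of 5.15. *Gabra5* in type 3 cells went from -3.15 to 1.36, a difference of 4.51. *Gabra4* in type 1 cells went from 1.68 to -2.61, a difference of -4.30. With 1 pool of brains per age the difference was not tested in any of them. P2 cells were all of library set 353, P5 cells of sets 383, 392 and 393, and P5 cortices were dissociated differently. Age, library set and dissociation therefore cannot be told apart in these differences. The instances are not independent either, since the types of an age share reference cells. The opposite signs held for *Gabrb2* in type 1 cells without the highest cell of each side (3.54 and -5.46), for *Gabrg3* in type 3 cells (-0.59 and 2.55) and for *Gabra5* in type 3 cells (-2.43 and 1.09). They did not hold for *Gabra4* in type 1 cells (-0.88 and -2.79) or for *Gabrb2* in type 2 cells (-4.43 and -0.91).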

How the results depend on the processing

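Of 56 folds of members 39 were past 2-fold, 30 of these took the opposite sign under no alternative run, although *Gabra4* in all P5 cells was at 0.00 within set 383, and 6 stayed past 2-fold the same way under all of them, namely *Gabra2* in P5 type 3, *Gabra3* in P5 type 2, *Gabrb2* in P2 and P5 type 1 and *Gabrg3* in P5 types 1 and 3 cells. Folds within a library set were run where each side had at least 5 cells. P2 folds had none, as P2 cells are of 1 set, and those of P5 types 2 and 3 had set 393 alone. With the mean of log2(RPM + 1) *Gabra3* in P5 type 2 and *Gabrb2* in P2 type 1 stood just past 2-fold, at 1.001 and 1.01. edgeR's factors, total counts on genes, a pseudocount of 0.1 RPM and both changes of filter moved no count of members by over 1.5-fold. Without the filter the share of all genes past 2-fold was lower in each comparison, as for P2 type 1, where it went from 19% to 6.81% (higher) and from 33.1% to 11.7% (lower). The cause of each change below was not tested. Counts are members higher or lower against the other types of that age, or against E18, and shares of all genes past 2-fold follow as ranges over the comparisons. They were 13.9 to 28.8% higher and 21 to 50.3% lower as reported, 5.09 to 15.4% and 8.06 to 28.8% with a pseudocount of 10 RPM, 0.498 to 16.1% and 0.704 to 16.3% with the mean of log2(RPM + 1), 3.24 to 25.2% and 12.4 to 51.8% without the highest cells, 13.8 to 29.3% and 20.4 to 50.6% with mean RPM, and 19 to 25.3% and 16.1 to 44.5% with DESeq2 factors. In all P5 cells they were 18.1% and 34.1% within set 383, 23.8% and 26.7% within set 392 and 20.3% and 25.6% within set 393. With a pseudocount of 10 RPM, 1 was higher in P2 type 1, 2 were lower in P2 type 3 and 1 was higher in all P2 cells. With the mean over cells of log2(RPM + 1), counts were 1 higher and 0 lower in P2 type 1, 0 and 0 in P2 types 2 and 3, 2 lower in P5 type 1, 1 higher and 0 lower in P5 type 2, 0 lower in P5 type 3, and 0 higher in all P2 and all P5 cells, and *Gabrg3* was at 0.10 in P2 type 3. Without the highest cell of each side, 1 was higher in P2 type 1, 0 higher in P2 type 3, 3 lower in P5 type 3 and 1 lower in all P2 cells, and the folds of *Gabra4* in P2 type 1, *Gabra2* in P2 type 3 and *Gabrb2* in P5 type 2 became -0.88, -0.83 and -0.91. With mean RPM over cells 2 were lower in P5 type 3, and with DESeq2 factors 5 were higher in all P5 cells. Within library set 392, 2 were higher and 2 lower in P5 type 1, with *Gabra2* at 0.11, *Gabra3* at 1.26, *Gabra4* at 4.44 and *Gabra5* at 0.52, and 1 was lower in all P5 cells. Within set 393, 2 were lower in P5 type 2, where *Gabrb2* was at -3.14, and 1 was lower in all P5 cells, where *Gabrb2* was at -0.66. Within set 383, 1 was higher and 3 were lower in all P5 cells, and without cells of other markers 1 was lower (against 23.1% of all genes). Cells with an alpha and a beta member made up 13.4% at E18, 25.8% in P2 type 2, and 17.6%, 57.9% and 50% in P5 types 1, 2 and 3 when 1 read pair counted as detection, 5.26% in P5 type 2 above 50 RPM, and 0% at E18 within set 392. DESeq2 factors moved the median fold of all genes from -1.02 to -0.58 in P2 type 3, from -0.17 to 0.27 in all P2 cells and from -0.14 to 0.20 in all P5 cells, and total counts moved it from -0.58 to -0.04 in P5 type 3.

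The limits are the single pool per age, groups as small as 13 cells, and levels set by few cells. Replicate numbers in these groups only name cells. No paired analysis was possible because each age is 1 pool and no test was run.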

Other observations

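Detection with at least 1 read pair ordered the members differently from expression above 10 RPM. *Gabra3* had a read pair in 66.4% of all cells and was above 10 RPM in 10.3%, *Gabrg3* in 56.5% and 9.42%, and *Gabra2* in 37.2% and 13.0%. For the other 4 members the gap was smaller, with 11.7% and 4.93% for *Gabra4*, 12.6% and 6.28% for *Gabrb1*, 13.5% and 4.93% for *Gabra5*, and 18.4% and 7.62% for *Gabrb2*. *Gabra6*, *Gabrp* and *Gabrr3* had 0 read pairs in all cells.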
